A study of Mus musculus with 32 samples.

Results

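Expression of 9 genes of vitamin A handling, out of 22337 genes measured, was compared between wild-type (WT) mice, 5xFAD mice and 5xFAD mice given light, in the hippocampus, the meninges and sorted meningeal lymphatic endothelial cells (mLECs). The genes were Rbp4, Stra6, Crabp1, Crabp2, Rdh10, Dhrs3, Aldh1a1, Aldh1a2 and Cyp26b1. They were chosen by name as genes of retinoid metabolism, and each of the 9 matched 1 gene identifier. Retinol circulates bound to the carrier encoded by Rbp4 and enters cells through the receptor encoded by Stra6. RDH10 oxidizes retinol to retinaldehyde, DHRS3 reduces it back, the ALDH1A enzymes turn retinaldehyde into retinoic acid, the CRABP proteins bind retinoic acid in the cytoplasm and CYP26B1 degrades it. Fibroblasts of the leptomeninges, the inner membranes around the brain, are a known site of retinoic acid synthesis.

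All mice were males of 6 months on the C57BL/6J background. The 5xFAD mice carry human transgenes with mutations of familial Alzheimer's disease under the Thy1 promoter, which models amyloid deposition from overexpressed transgenes, and the WT mice were littermates without them. Light was near-infrared and given through the skull for 10 min, 3 times per week over 4 weeks. The hippocampus groups held 4 libraries each. For meninges, and likewise for sorted mLECs, there were 4 WT libraries, 3 of untreated 5xFAD and 3 with light. No light-treated WT mice were sequenced, so an effect of light was compared in 5xFAD mice alone. The expected counts of a hippocampus library summed to between 13952825 and 23856476. The sums lay between 6601143 and 14708202 for meninges, and between 14231415 and 24207326 for mLECs. Genes with a count above 0 numbered 16371 to 18264 per hippocampus library, 17427 to 19769 per meninges library and 5998 to 9020 per mLEC library.

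The tissue labels were compared with marker genes. Between WT meninges and WT hippocampus, edgeR called 6 of 6 neuron markers and 4 of 4 oligodendrocyte markers lower in the meninges. In the same comparison 11 of 11 tested leptomeningeal fibroblast markers, 6 of 6 dural fibroblast markers, 10 of 10 choroid plexus markers, 6 of 6 pineal markers and 3 of 3 bone markers were higher. The meninges libraries held RNA of choroid plexus and pineal gland as well as of the membranes, with a summed FPKM of the choroid plexus list from 17405 to 55183. In the mLEC libraries all pineal, bone and skeletal muscle markers were listed at 0. The 6 dural fibroblast markers summed to 1629 to 6419 FPKM there, with Mgp most abundant at a mean of 2132. Dkk2 and Matn4 of this list were at 0 in all mLEC libraries. The sum of 5 mural cell markers was 0.15 to 493 FPKM. The summed FPKM of 7 lymphatic markers was 6736, 38.0, 4353 and 55.7 in the 4 WT mLEC libraries, 1156, 1684 and 4490 in 5xFAD and 9718, 3079 and 8755 with light. WT replicates 2 and 4 were thus far below the other 8 mLEC libraries in lymphatic markers, while blood endothelial markers summed to 984 to 3192 in all 10.

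The first comparison asked where the 9 genes were expressed in WT mice. In WT meninges 7 of 9 genes were called higher than in WT hippocampus. Of the 14144 tested genes, 4000 were called higher and 50.0% were called in either direction. Rbp4 averaged 32.2 FPKM in meninges and 11.4 in hippocampus, and Stra6 29.6 and 4.98. Crabp1 had the largest of these differences, at 284 and 1.41 FPKM (log2 fold change 7.60 ± 0.27 SE, adjusted p = 3.5e-08). For Crabp1 4 of 4 meninges libraries were above all hippocampus libraries, where 66% of the 14144 tested genes had groups without overlap. Crabp2 averaged 74.6 and 1.27 FPKM (5.79 ± 0.34, adjusted p = 2.7e-07). Rdh10 was 1.18 and Dhrs3 1.67 higher on the log2 scale. Rdh10 was under 2-fold with limma on log2(FPKM + 1), at 0.92. Aldh1a2 averaged 30.4 and 1.69 FPKM (4.12 ± 0.39, adjusted p = 5.0e-06). Aldh1a1 was lower in the meninges, at 24.4 against 43.3 FPKM (−0.81 ± 0.22, adjusted p = 0.0064), a difference under 2-fold. Cyp26b1 averaged 1.44 and 2.29 FPKM and was not called (adjusted p = 0.0598). Part of the reads of Aldh1a1 may be shared with its close paralog Aldh1a7, which was low itself, with a mean of 0.106 FPKM over the 12 hippocampus libraries of all groups and 0.897 over the 10 of meninges.

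**Figure D1:**
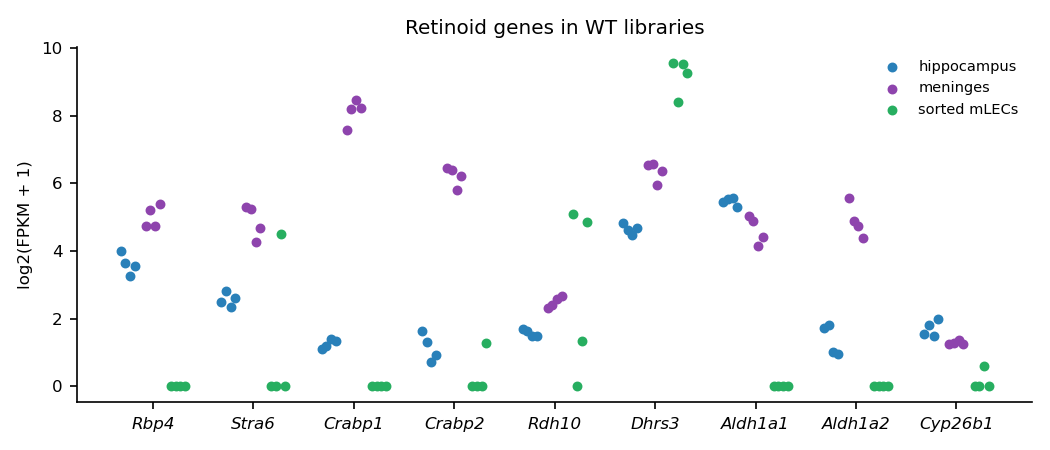
Log2(FPKM + 1) of the 9 genes in each WT library, with 4 points per tissue for hippocampus, meninges and sorted mLECs (a separate table, not tested against the others). Crabp1 averaged 284 FPKM in meninges, 1.41 in hippocampus and 0 in mLECs, and Dhrs3 was the only one of the 9 with at least 1 FPKM in all 10 mLEC libraries.

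The hippocampus comparisons asked what differed in 5xFAD mice and in 5xFAD mice given light. In 5xFAD against WT hippocampus, edgeR called 1 of 9 genes (Crabp2, higher), against 4.28% of the 12981 tested genes. DESeq2 called 2 of 9 (Crabp2 and Aldh1a2), against 4.78% of 12956 genes. In light-treated against untreated 5xFAD hippocampus, edgeR called 1 of 9 (Crabp2, lower), against 0.270%, and DESeq2 called 3 of 9 (Crabp2, Rbp4 and Aldh1a2), against 1.48%. In light-treated 5xFAD against WT hippocampus 0 of 9 were called by edgeR, DESeq2 or limma, against 2.36% of genes by edgeR. An unadjusted p under 0.05 was found for 3, 6 and 4 of the 9 in the order of these comparisons, and for 3110, 2382 and 2162 of the 12981 tested genes. These 3 comparisons share groups, and a high value in the 4 untreated 5xFAD libraries enters the first 2 with opposite signs.

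**Figure D2:**
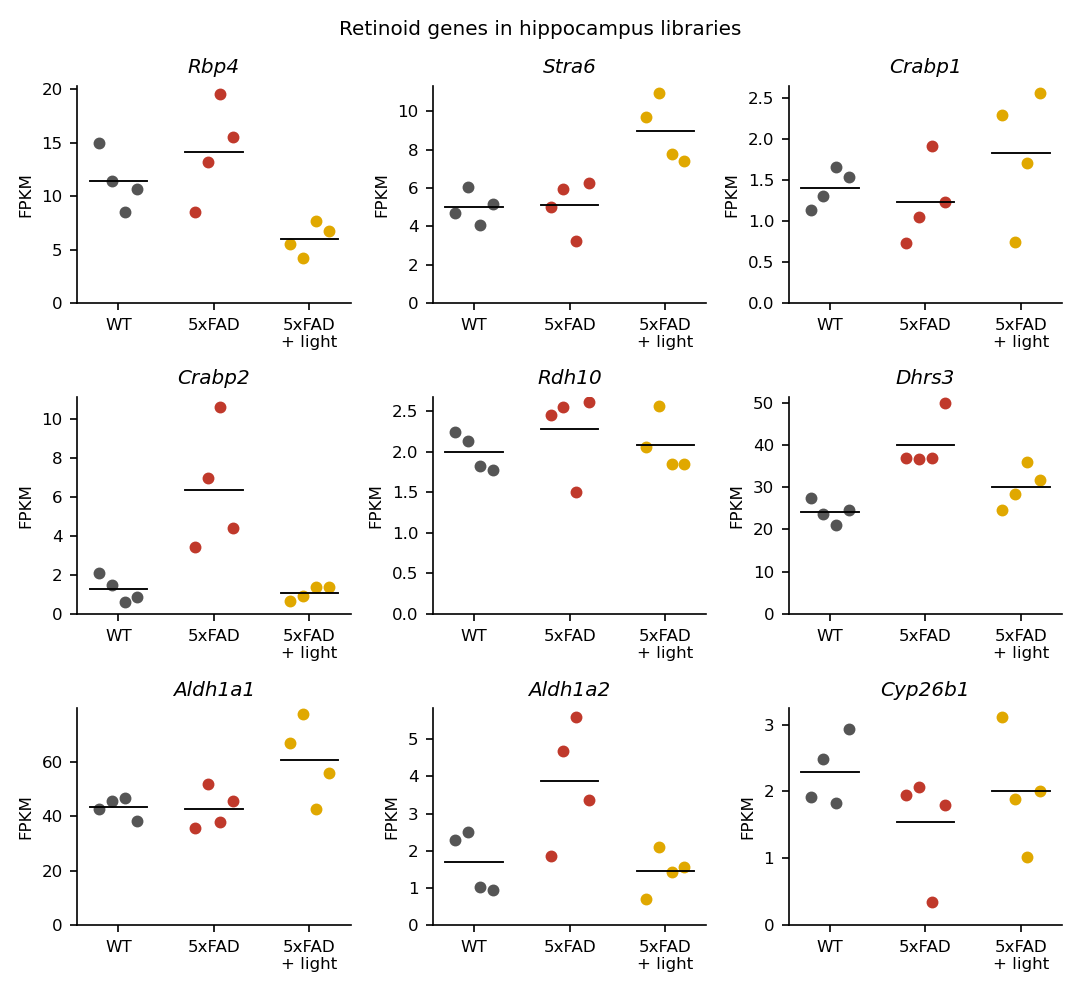
FPKM of the 9 genes in each hippocampus library, 4 per group, with a line at the group mean. The 4 untreated 5xFAD libraries have 3.44 to 10.6 FPKM of Crabp2, above all 8 other libraries, of which 2.08 is the highest.

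Rbp4 was at 15.0, 11.4, 8.54 and 10.7 FPKM in the WT hippocampus libraries, 8.52, 13.2, 19.6 and 15.5 in untreated 5xFAD, and 5.49, 4.25, 7.64 and 6.76 with light. Every light-treated library was below every library of the other groups. The difference from untreated 5xFAD was −1.26 ± 0.26 on the log2 scale and missed the threshold with edgeR (adjusted p = 0.0537). Over the alternatives its adjusted p ranged from 0.00092 to 0.196, and leaving out untreated replicate 1 (0.0408) or 2 (0.0434) brought it under 0.05. Stra6 was at 4.67, 6.05, 4.07 and 5.14 FPKM in WT, 5.01, 5.97, 3.23 and 6.27 in untreated 5xFAD, and 9.72, 10.9, 7.76 and 7.39 with light. Light-treated libraries were again apart, here above all others, by 0.78 ± 0.21 from untreated 5xFAD (adjusted p = 0.101) and by 0.80 ± 0.21 from WT (adjusted p = 0.0555).

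Crabp1 stayed between 0.73 and 2.55 FPKM in the 12 hippocampus libraries with overlapping groups. Crabp2, which lies on chromosome 3 from 87948666 to 87953376 on GRCm38, was at 2.08, 1.47, 0.64 and 0.88 FPKM in WT, 3.44, 6.98, 10.6 and 4.41 in untreated 5xFAD, and 0.68, 0.92, 1.41 and 1.36 with light. The untreated 5xFAD libraries did not overlap with either other group. Crabp2 rose in 5xFAD against WT by 2.30 ± 0.42 on the log2 scale (adjusted p = 0.0037, higher in 4 of 4 libraries). It was lower with light than without by −2.53 ± 0.43 (adjusted p = 0.0402, 4 of 4 libraries lower), and light-treated 5xFAD differed from WT by −0.22 (adjusted p = 0.844). The first of these calls held without each of the 8 libraries in turn, with an adjusted p from 0.0026 to 0.0191. The call with light was lost without untreated replicate 3 (adjusted p = 0.0585) or 4 (0.0556), and without light-treated replicate 1 (0.18), 2 (0.164) or 4 (0.0718). It was also lost with the compared groups alone (adjusted p = 0.121), where 0 genes in all were called. Its fold change kept its sign in all 15 alternatives, between −2.73 and −1.73. Crabp2 could not be tested under a filter of a mean FPKM of at least 5.

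Rdh10 was between 1.50 and 2.62 FPKM in the 12 hippocampus libraries, with overlapping groups. Dhrs3 was at 27.6, 23.6, 21.1 and 24.6 FPKM in WT, 36.8, 36.6, 37.0 and 49.9 in untreated 5xFAD, and 24.5, 28.4, 36.0 and 31.6 with light. Every untreated 5xFAD library was above every other library. Against WT the difference of 0.72 ± 0.14 passed the adjusted p threshold (0.0051) and was under 2-fold, and against untreated 5xFAD the light-treated libraries were lower by −0.41 ± 0.14 (adjusted p = 0.156). Counting Crabp2 and Dhrs3, 2 of 9 genes had groups that did not overlap in 5xFAD against WT, where 14.5% of tested genes did so. With Rbp4 and Stra6 added, 4 of 9 did not overlap between light-treated and untreated 5xFAD, against 7.63%. Between light-treated 5xFAD and WT, Rbp4 and Stra6, 2 of 9, did not overlap, against 14.9%.

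Aldh1a2 was at 2.28, 2.50, 1.03 and 0.95 FPKM in WT hippocampus, 1.85, 4.69, 5.60 and 3.38 in untreated 5xFAD, and 0.71, 2.11, 1.42 and 1.57 with light. The groups overlapped through untreated replicate 1 at 1.85. The difference of 5xFAD from WT was 1.20 ± 0.40 (adjusted p = 0.0842), and it ran from 0.97 to 1.43 when 1 library was left out, with an adjusted p from 0.0435 to 0.214. That of light-treated from untreated 5xFAD was −1.42 ± 0.41 (adjusted p = 0.117). Aldh1a1 was at 42.6, 45.5, 46.7 and 38.3 FPKM in WT, 35.6, 52.0, 38.0 and 45.6 in untreated 5xFAD, and 66.9, 77.8, 42.7 and 56.1 with light. Its groups overlapped, and light-treated differed from untreated 5xFAD by 0.51 ± 0.17 (adjusted p = 0.146). Cyp26b1 was between 0.35 and 3.11 FPKM with overlapping groups, and untreated 5xFAD replicate 3 was lowest.

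The same hippocampus libraries differed in markers of the membranes. The summed FPKM of 6 dural fibroblast markers was 49.3, 53.8, 38.1 and 35.4 in WT, 75.2, 112, 232 and 76.8 in untreated 5xFAD, and 42.9, 41.7, 58.1 and 52.4 with light. Its most abundant gene was Mgp and none of its 6 genes was at 0 in all libraries. Of 5 tested dural markers, Mgp, Fmod and Fxyd5 were called higher in 5xFAD than WT, and Fmod lower with light (−2.13, adjusted p = 0.0483). The sum of 12 leptomeningeal fibroblast markers, of which Igfbp2 was most abundant and none was at 0 in all libraries, was 86.4, 140.5, 61.3 and 58.0 in WT, 134, 163, 144 and 151 in untreated 5xFAD, and 39.1, 55.3, 55.3 and 56.2 with light. Of 8 tested, 0 were called by edgeR in either comparison, with 5 and 6 at an unadjusted p under 0.05; 7 were above 0 in 5xFAD and 8 below 0 with light. Crabp2 followed the dural sum over the 12 libraries with a Pearson r of 0.96, and 0.91 after the group means were removed, and followed the leptomeningeal sum with 0.83 and 0.46. Aldh1a2 had an r of 0.86 with the dural sum, and 0.70 after the group means were removed, and of 0.84 and 0.71 with the leptomeningeal sum. Other lists also correlated. With mural cell markers Crabp2 had 0.70 and 0.55 in the same order, and Aldh1a2 0.77 and 0.64. With arachnoid barrier markers Crabp2 had 0.72 and 0.39, and Aldh1a2 0.70 and 0.42. With blood endothelial markers Crabp2 had 0.40 and 0.47, and Aldh1a2 0.36 and 0.36. The 3 genes most like Crabp2 were Fmod (0.965), Col1a2 (0.964) and Cavin2 (0.936), and those most like Aldh1a2 were Bmp7 (0.949), Slc6a13 (0.949) and Ptgds (0.947). Whether more of the membranes stayed on the untreated 5xFAD hippocampi was not tested, and in bulk tissue the number of cells of a type and the RNA per cell cannot be told apart.

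In the hippocampus libraries the sum of 10 choroid plexus markers, with Ttr most abundant and none at 0 in all libraries, was 181, 3178, 525 and 82.9 FPKM in WT, 3484, 3203, 842 and 279.9 in untreated 5xFAD, and 176, 169, 107 and 325 with light. Of these markers 0 of 10 were called by edgeR in each comparison. With light 10 of 10 were below 0 against untreated 5xFAD (7 at an unadjusted p under 0.05, median −1.86) and against WT (4, median −1.26), and 9 were above 0 in 5xFAD against WT (0, median 0.54). Crabp2 had an r of 0.52 with their sum, Rbp4 0.30 and Stra6 −0.35, and after the group means were removed 0.00, −0.37 and 0.12. Stra6 had an r of 0.71 with the sum of 7 lymphatic markers, and 0.69 without the group means. In hippocampus Pdpn was most abundant of these at a mean of 17.7 FPKM, and 4 of the 7 had a mean of at least 1. Whether they come from lymphatic cells in this tissue was not tested. The lymphatic sum was 24.45 to 35.27 FPKM in WT, 24.74 to 49.25 in untreated 5xFAD and 36.82 to 45.09 with light. With 6 pineal markers, whose sum was between 1.13 and 4.35 FPKM, Stra6 had −0.76 and −0.65. Of these 6 only Sag had a mean of at least 1 FPKM (1.74), and Asmt was at 0 in all hippocampus libraries. Rbp4 had an r of 0.75 with the leptomeningeal sum and 0.64 with the dural sum, and 0.28 and 0.70 without the group means. With 5 mural cell markers, Rgs5 most abundant and the sum between 14.7 and 25.2 FPKM, Rbp4 had 0.74 and 0.58. Dhrs3 followed the sum of 5 microglia and macrophage markers with an r of 0.87, and 0.84 after the group means were removed. With 5 astrocyte markers, Gfap most abundant, Dhrs3 had 0.71 and 0.33, and with the dural sum 0.65 and −0.03. The astrocyte sum was 581 to 706 FPKM in WT, 740 to 3093 in untreated 5xFAD and 1110 to 1513 with light. The microglia and macrophage sum was 118, 101, 101 and 104 FPKM in WT, 226, 185, 188 and 258 in untreated 5xFAD, and 157, 175, 211 and 226 with light, with Csf1r most abundant. Cx3cr1, Csf1r and Ptprc, 3 of 4 tested markers, were called higher in 5xFAD than WT, and 0 of 4 were called with light against untreated 5xFAD. With light against WT, 3 of 4 were called higher (median 1.10). The genes most like Dhrs3 were Apool (0.975), Scamp2 (0.956) and Stom (0.949).

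**Figure D3:**
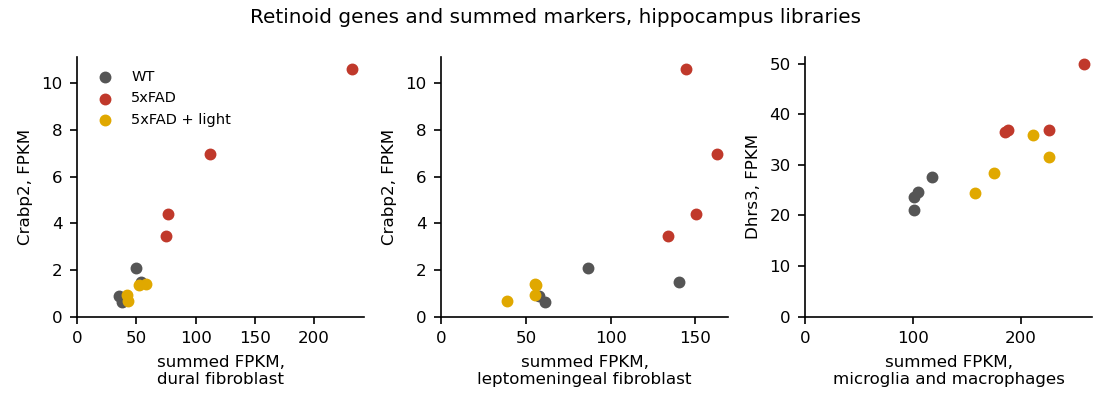
FPKM of Crabp2 against the summed FPKM of dural and of leptomeningeal fibroblast markers, and of Dhrs3 against that of microglia and macrophage markers, with 1 point per hippocampus library, 12 in all. Crabp2 reached 10.6 FPKM in the library with the highest dural sum, 232.

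In hippocampus the median log2 fold change of the 9 genes was 0.21 for 5xFAD against WT and −0.14 for light-treated against untreated 5xFAD, compared with 0.01 and −0.02 for all tested genes. Further retinoid pathway genes, 42 in all, were compared between WT meninges and WT hippocampus, where 16 of 27 tested were higher and Fabp5 was lower. Of the 14144 genes tested there, 4000 were called higher and 3071 lower. Among the further pathway genes the largest differences were those of Rbp7 (7.12), Adh1 (6.16), Lrat (5.93) and Ttr (5.32) on the log2 scale. Rbp7, Adh1 and Lrat reached 1 FPKM in 0 of 12 hippocampus libraries, with means of 0.067, 0.318 and 0.025. These 3 genes thus passed the filter through the meninges alone, and the sizes of their differences rest on hippocampus values near 0.

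In the meninges 0 of 9 genes were called by edgeR, DESeq2 or limma in any of the 3 comparisons, and 0 of 9 had an unadjusted p under 0.05. Of the 14318 tested genes, edgeR called 0% in 5xFAD against WT, 0.0140% with light against untreated 5xFAD and 0.0140% with light against WT, and 574, 1822 and 2355 had an unadjusted p under 0.05. DESeq2 called 0, 72 and 373 genes in all in the same order, and limma 0, 1 and 3. Rbp4 was at 25.8, 36.2, 25.5 and 41.3 FPKM in WT, 62.4, 29.3 and 11.2 in untreated 5xFAD, and 23.3, 21.9 and 43.8 with light. Stra6 ranged from 12.9 to 38.8 FPKM over the 10 libraries. Crabp1 was at 192, 292, 351 and 301 FPKM in WT, 364, 356 and 67.0 in untreated 5xFAD, and 162, 268 and 314 with light. The low value belonged to replicate 4, which was also lowest for Rbp4 and had a summed FPKM of 241 for 6 pineal markers, against 599 to 1583 in the other 9 libraries. Crabp1 had an r of 0.80 with the pineal sum over the 10 libraries, and 0.87 after the group means were removed. Its most similar genes were Gzmm (0.985), Pde6g (0.966) and Chgb (0.966). A share of Crabp1 from pineal RNA was not tested.

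Crabp2 was at 87.5, 83.0, 55.1 and 72.9 FPKM in WT meninges, 44.4, 74.4 and 99.4 in untreated 5xFAD, and 73.6, 60.5 and 55.9 with light. Its groups overlapped, with log2 fold changes of −0.03 in 5xFAD and −0.20 with light. Rdh10 in light-treated meninges, at 5.07, 4.03 and 3.39 FPKM, was below the untreated 5xFAD libraries at 5.35, 5.50 and 6.63 (−0.48 ± 0.26, adjusted p = 0.440). It was the 1 of 9 without overlap there, against 20.8% of the 14318 genes. Dhrs3 ranged from 61.2 to 135.5 FPKM, Aldh1a1 from 16.9 to 45.6 and Cyp26b1 from 0.57 to 2.97. Aldh1a2 was at 46.7, 28.9, 25.9 and 19.9 FPKM in WT, 18.3, 27.4 and 24.7 in untreated 5xFAD, and 36.7, 52.9 and 18.1 with light. Of the other pathway genes in meninges, Ttr had a mean of 33009 FPKM, Rdh5 of 206 and Rarres2 of 132.

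Whether the effects differed between tissues was tested directly, as the meninges effect minus the hippocampus effect. For 5xFAD against WT, 1 of 9 genes was called, Crabp2 (−2.32 ± 0.52, adjusted p = 0.0214), against 1.69% of the 15132 tested genes. For light-treated against untreated 5xFAD 1 of 9 was called, also Crabp2 (2.29 ± 0.54, adjusted p = 0.0448), against 0.971%. The untreated 5xFAD libraries of both tissues enter both contrasts with opposite signs, so the calls of Crabp2 are not independent. Aldh1a2 differed by −1.58 ± 0.57 (adjusted p = 0.199) and 1.99 ± 0.59 (adjusted p = 0.0884), and DESeq2 called the second of these (adjusted p = 0.0268).

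In sorted mLECs 2 of 9 genes passed the filter, Rdh10 and Dhrs3. By edgeR 0 of 2 were called in each comparison, against 0% of the 8188 tested genes in 5xFAD against WT, 0% in light-treated against untreated 5xFAD and 0.0122% in light-treated 5xFAD against WT. At an unadjusted p under 0.05 there were 1, 1 and 0 of them, against 312, 328 and 550 of all tested genes. DESeq2 called 1, 1 and 0 of them, each time Rdh10, and 185, 357 and 464 genes in all, while limma called 0 of the 2. Rdh10 was at 33.1, 0, 1.53 and 28.0 FPKM in WT, 0.01, 0 and 0 in untreated 5xFAD, and 0, 0.01 and 18.0 with light. It was thus detected in scattered libraries, and it passed the filter through 3 WT libraries and light-treated replicate 3. WT replicate 4, at 28.0, had a lymphatic marker sum of 55.7 FPKM and the highest mural cell sum of the mLEC libraries, 493. When 1 library was left out, the edgeR fold change of Rdh10 ran from −13.13 to −10.50 for 5xFAD against WT, from 0.37 to 11.54 for light against untreated 5xFAD and from −10.99 to −0.73 for light against WT. The last 2 were lowest without light-treated replicate 3. Dhrs3 was at 751, 336, 743 and 619 FPKM in WT, 947, 1241 and 872 in untreated 5xFAD, and 307, 792 and 602 with light. The 3 untreated 5xFAD libraries were above the other 7, by 0.52 ± 0.44 from WT (adjusted p = 1.00) and with −0.78 ± 0.47 for light against untreated (adjusted p = 1.00). With 1 library left out, the first ran from 0.33 to 0.73 and the second from −1.24 to −0.45. The 0.33 was found without WT replicate 2, whose lymphatic markers summed to 38.0 FPKM. Of all 8188 genes 6.23% did not overlap in the first of these comparisons and 10.1% in the second.

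Of the genes under the filter, Rbp4, Crabp1 and Aldh1a2 were listed at 0 in all 10 mLEC libraries. Stra6 was above 0 in WT replicate 3 alone (21.6 FPKM), Crabp2 in WT replicate 4 (1.41) and 5xFAD replicate 4 (11.4), and Aldh1a1 in 5xFAD replicate 4 (0.05). Cyp26b1 was at 0, 0, 0.51 and 0 FPKM in WT, 3.93, 0.95 and 16.1 in untreated 5xFAD, and 0, 0.01 and 0 with light. Its 3 untreated 5xFAD libraries were above the other 7, with 0.95 against 0.51 FPKM at the closest. The shares of genes without overlap given for mLECs cover only genes that passed the filter. Cyp26b1 did not pass the filter, and without the filter 6 members were tested and 0 were called in each comparison. Leptomeningeal markers summed to 7.07 to 613 FPKM in the mLEC libraries, with Dcn most abundant and Slc6a13, Slc22a6, Slc13a4, Lama1 and Lum at 0 in all. Of the other pathway genes Tgm2 (mean 375 FPKM) and Rbp7 (259) were most abundant.

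Sequence before the transcription start was read from RefSeq on GRCm38.p6 for the 7 members with an entry, all but Crabp2 and Rdh10. Half-sites of retinoic acid receptors (AGGTCA or the variants GGGTCA and AGTTCA as well as GGTTCA, on either strand) occur in 38.6% of 32851 such stretches of 250 bases. The first listed start of Stra6, Crabp1, Aldh1a1 and Cyp26b1 has 0 half-sites. Among further listed starts, that of Aldh1a1 has 1 (GGGTCA), and those of Rbp4, Stra6 and Dhrs3 have 0. The stretches before the first listed start of Rbp4, Dhrs3 and Aldh1a2 follow. Capitals mark a half-site. Rbp4, on chromosome 19 from 38125322 to 38125571, has 1 of them, GGGTCA on the opposite strand: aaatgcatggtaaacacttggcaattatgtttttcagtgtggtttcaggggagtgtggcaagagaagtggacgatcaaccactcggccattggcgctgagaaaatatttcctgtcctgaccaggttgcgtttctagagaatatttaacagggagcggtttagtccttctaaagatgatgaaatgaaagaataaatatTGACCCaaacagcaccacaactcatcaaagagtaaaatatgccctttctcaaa. Dhrs3, on chromosome 4 from 144892577 to 144892826, has none: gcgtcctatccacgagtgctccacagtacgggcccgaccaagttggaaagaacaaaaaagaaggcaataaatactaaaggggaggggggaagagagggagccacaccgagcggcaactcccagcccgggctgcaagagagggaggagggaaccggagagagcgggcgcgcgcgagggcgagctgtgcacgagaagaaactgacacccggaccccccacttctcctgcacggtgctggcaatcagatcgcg. Aldh1a2, on chromosome 9 from 71215539 to 71215788, has none and is 77.6% G and C, against 40.8% for Rbp4 and 61.6% for Dhrs3: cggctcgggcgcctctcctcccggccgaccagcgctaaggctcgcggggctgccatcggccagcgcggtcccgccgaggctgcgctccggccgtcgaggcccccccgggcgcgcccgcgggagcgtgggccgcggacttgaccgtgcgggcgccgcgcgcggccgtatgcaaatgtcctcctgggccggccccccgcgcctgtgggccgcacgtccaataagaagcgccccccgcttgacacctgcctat.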

How the data were processed

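RNA was measured by Smart-seq2 in 12 hippocampus, 10 meninges and 10 sorted mLEC libraries, each from 1 mouse. Meninges were stripped from the skullcaps, and mLECs were sorted as DAPI-negative, CD45-negative, CD31-positive and PDPN-positive cells. The authors deposited expected counts per gene without normalization. The authors also deposited FPKM, in which counts are scaled to transcript length and library size. The paper's methods name fastp and RSEM, while the submitters' processing notes name Trimmomatic, HISAT2, StringTie, DESeq2 and build mm10. Symbols were taken from the mLEC table and joined by identifier, since only 69.2% of symbols were equal in both tables (8 of 9 members). The 9 members, 42 other pathway genes and the marker lists were chosen with earlier results of these data known, and the tests and alternatives were written down before the values were examined here.

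Tests used edgeR 4.0.16 (TMM, quasi-likelihood) in R 4.3.3 on rounded expected counts, with the groups of a tissue in 1 fit. A gene was tested when 3 or more samples of the fit reached an FPKM of 1. P values were adjusted by Benjamini-Hochberg over all tested genes, and a gene was called at an adjusted p below 0.05 and at least 2-fold. Differences between tissue effects were contrasts in 1 fit of hippocampus and meninges. mLECs, which have their own table, were tested only among themselves. Alternatives were DESeq2 1.42.0, RLE normalization, no filter, a mean FPKM of at least 5, limma 3.58.1 on log2(FPKM + 1), the compared groups alone, a replicate block, no fold threshold, and leaving out each library. For the differences between tissue effects only DESeq2, RLE normalization and no fold threshold were run, so those calls were not examined with a library left out. All members were named, with some of the called or abundant genes of the pathway lists (calls of these lists are given between WT tissues only), the 3 genes most correlated with a described member, and the most abundant marker of a described list. Pearson r is over libraries, as a description that mixes group and library differences. Promoter sequence came from RefSeq, build GRCm38.p6.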

Additional observations from a re-analysis of the deposited data

Results flagged for a closer look

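In 70 groups of 4 libraries with unequal values, 9 genes and 6 marker sums were examined for a library far from the other 3, by its gap to the nearest value over the range of the group. Chance alone marks about 1 in 20 groups of normally distributed values, and 10 of the 70 were marked. A group with 3 libraries at 0 has a ratio of 1 by construction, so this rate does not hold for such groups. In sorted WT mLECs the ratio was 1 for Stra6 in replicate 3 (21.6 FPKM), Crabp2 in replicate 4 (1.41) and Cyp26b1 in replicate 3 (0.51), each with the other 3 libraries at 0. In untreated 5xFAD hippocampus it was 0.848 for Rdh10 in replicate 3 (1.50 FPKM, next 2.45), 0.848 for Cyp26b1 in replicate 3 (0.35, next 1.80) and 0.969 for Dhrs3 in replicate 4 (49.9, next 37.0). Replicate 3 of that group also held the highest Crabp2, Rbp4 and Aldh1a2. Summed markers gave 0.947 for leptomeningeal fibroblasts in light-treated hippocampus replicate 1 (39.1, next 55.3), 0.857 for choroid plexus in WT hippocampus replicate 2 (3178, next 525), 0.871 for choroid plexus in WT meninges replicate 1 (17405, next 41044) and 0.857 for microglia and macrophages in WT mLEC replicate 2 (42.5, next 6.06).

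Effects that differed between meninges and hippocampus by a direct test were those of Crabp2, with −2.32 on the log2 scale for 5xFAD against WT and 2.29 for light-treated against untreated 5xFAD. Of the marker genes named beside it, Fmod gave −2.17 and 2.37 in the same order, and Csf1r (−1.37) and Ptprc (−1.93) differed for 5xFAD against WT. In meninges the summed FPKM of 6 dural fibroblast markers was 8529 to 15215 in WT, 15887 to 18284 in untreated 5xFAD and 8269 to 13436 with light. Of these markers 0 of 6 tested were called there in 5xFAD against WT. All per-sample columns belonged to a group. The 12 libraries in groups of 3 were not examined for a library far from the others.

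The groups hold 3 or 4 mice, and untreated 5xFAD libraries serve both the genotype and the light comparison. There were no light-treated WT mice. Meninges and hippocampus are mixtures of cell types, and the labels do not say whether both came from the same mice. The mLEC libraries detected 5998 to 9020 genes and varied most, so a member listed at 0 there was not detected, which does not show that it is absent.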

How the results depend on the processing

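Of 1081 log2 fold changes of members recomputed under the alternatives, 1020 kept their sign and 61 changed it, and none of the 61 was called in either fit; 12 gained and 8 lost a call. Of 157 recomputed counts of called members, 138 stayed within 1.5 times the count reported and 19 did not. In 5xFAD against WT hippocampus the count of 1 became 2 with DESeq2, 2 without the fold threshold, and 0 under the minimum mean FPKM of 5, where 4 members without Crabp2 were left to test; leaving out 1 library gave 1 to 2. With light against untreated 5xFAD hippocampus the count of 1 became 3 with DESeq2, 2 without the filter, 0 with a mean FPKM of at least 5, 0 with the replicate block (Crabp2 adjusted p = 0.0575) and 0 with the compared groups alone (0.121, when 0 genes in all were called); leaving out 1 library gave 0 to 2. The adjusted p of Crabp2 in this comparison ranged from 1.7e-05 to 0.18. With DESeq2 the count of 0 became 1 in mLECs for 5xFAD against WT and 1 for light against untreated 5xFAD, and the count of 1 became 2 for the light effect in meninges minus that in hippocampus. Apart from Rdh10 in mLECs, the values that changed sign were between −0.38 (Aldh1a1) and 0.33 (Aldh1a1) in the main fit, and the cause was not tested. In 5xFAD against WT hippocampus Stra6 was −0.01 without the filter and −0.01 with the block, and Aldh1a1 0.00 with a mean FPKM of at least 5. In 5xFAD against WT meninges Rbp4 was 0.00 without the filter, −0.19 with limma and −0.15 with the block, Crabp2 0.00 with a mean FPKM of at least 5 and Dhrs3 −0.07 with the block. In light-treated meninges limma gave 0.03 for Rbp4 and 0.21 for Crabp1 against untreated 5xFAD, and 0.04 for Aldh1a1 against WT. The block gave 0.07 for Rdh10 in light-treated against WT mLECs, where the main value was −1.60 and those with 1 library left out ran from −10.99 to −0.73. Cyp26b1 in the difference between tissue effects of 5xFAD was 0.01 with DESeq2 and 0.00 with RLE. Leaving out 1 library moved these across 0. In hippocampus, Stra6 ran from −0.09 to 0.20 and Aldh1a1 from −0.14 to 0.06 in 5xFAD against WT, Cyp26b1 from −0.11 to 0.39 with light against untreated 5xFAD, and, with light against WT, Crabp2 from −0.42 to 0.13, Rdh10 from −0.03 to 0.12, Aldh1a2 from −0.42 to 0.02 and Cyp26b1 from −0.35 to 0.05. In 5xFAD against WT meninges, Rbp4 ran from −0.70 to 0.48, Stra6 from −0.34 to 0.19, Crabp1 from −0.41 to 0.34, Crabp2 from −0.33 to 0.23, Dhrs3 from −0.33 to 0.30 and Aldh1a1 from −0.06 to 0.52. With light against untreated 5xFAD meninges, Rbp4 ran from −0.60 to 0.58, Stra6 from −0.44 to 0.15, Crabp1 from −0.53 to 0.22, Crabp2 from −0.47 to 0.10 and Aldh1a1 from −0.58 to 0.01. With light against WT meninges, Rbp4 ran from −0.55 to 0.09, Stra6 from −0.46 to 0.03, Crabp1 from −0.47 to 0.00, Aldh1a1 from −0.25 to 0.10 and Aldh1a2 from −0.07 to 0.50. In mLECs Dhrs3 ran from −0.67 to 0.08 with light against WT. Whether equal replicate numbers pair libraries is not in the labels, and the main fits did not pair them. Deviations from group means of equal numbers correlated by −0.28 to 0.09 in hippocampus (12 pairs), −0.31 to 0.244 in meninges (9) and −0.033 to 0.012 in mLECs (8). Between WT hippocampus and WT meninges, the only groups compared across tissues in this way, they correlated by 0.003 to 0.172 (4 pairs, median 0.062), against −0.091 to 0.065 for unequal numbers (12, median −0.034). Total counts were lowest in meninges (from 6601143) and detected genes fewest in mLECs (from 5998), so differences of weakly expressed members may not have been detectable there.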
